A study of Cicer arietinum with 4 samples.

Results

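PAL, CHS and CYP93C3 are 3 enzyme genes at entry points of phenylpropanoid, flavonoid and isoflavonoid synthesis. They were taken from the deposited table by their exact gene names and are 3 of its 28783 genes. Their transcripts were measured by RNA sequencing of chickpea (*Cicer arietinum*) ovules, cultivar ICC4958. An ovule encloses the egg cell and develops into a seed once fertilized. One group was pre-fertilization ovules from closed buds and the other post-fertilization ovules from half-opened flowers, with 2 libraries each, and all were total RNA of the same cultivar. No transgene, mutation or treatment is named for either group. Flower stage and fertilization differ together, so their effects cannot be told apart. The pre-fertilization libraries are named bud A and bud B and the post-fertilization libraries flower A and flower B, with letters that carry no order. The labels do not say whether the libraries of a group came from separate plants, so p-values measure only the spread between these samples, which may be technical.

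Plants build phenylpropanoids from the amino acid phenylalanine. PAL, phenylalanine ammonia-lyase, removes its amino group to give cinnamic acid, and cinnamate 4-hydroxylase (here CYP73) carries this on towards the activated acids that feed lignin and flavonoids. CHS, chalcone synthase, joins such an acid with malonyl units into a chalcone and so opens the flavonoid branch, which leads to flavonols, anthocyanins and the tannins of seed coats. CYP93C enzymes, the isoflavone synthases, are cytochromes P450 that turn a flavanone towards isoflavones. In legumes this branch goes on to pterocarpan defence compounds through isoflavone hydroxylases of the CYP81E subfamily and isoflavone reductase (IFR).

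Levels are given as FPKM, a measure of fragments corrected for transcript length and for library size, and absolute sequencing depth is unknown. Summed over all genes, FPKM was 1483036 in bud A, 1804431 in bud B, 2197998 in flower A and 3574218 in flower B. The sign of a small difference between the groups can thus depend on how libraries are scaled. Pearson's correlation of log2(FPKM + 1) across tested genes, which are no independent replicates, was 0.964 for the bud pair and 0.954 for the flower pair. It lay between 0.812 and 0.858 for pairs across the groups. Of 34 marker symbols for ovule, pollen, green and seed tissue only 2 were found in the table (AP2 and LEG), too few to check the labelled tissue. AP2, a regulator of floral organs and ovules, stood at 60.3 FPKM in bud A, 56.6 in bud B, 65.6 in flower A and 96.3 in flower B. LEG, taken here for a seed storage legumin, was at 0.0783 FPKM or below in every library.

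The contrast of the groups addresses which transcripts differ between pre-fertilization ovules of closed buds and post-fertilization ovules of half-opened flowers. CHS was 8.63-fold higher after fertilization, while CYP93C3 was 8.67-fold lower and PAL 2.16-fold lower. All 3 passed limma's adjusted p threshold of 0.05, while 36.5% of all 17849 tested genes passed it, 21.0% higher and 15.5% lower after fertilization. With quantile normalization the background split turned to 16.6% higher and 22.7% lower, and the 3 genes kept their directions and calls. The groups did not overlap for any of the 3, as for 75.7% of the tested genes. PAL reached the filter of 1 FPKM in all 4 libraries. CHS reached it only in the post-fertilization libraries and CYP93C3 only in the pre-fertilization libraries, so these genes entered the test through the group where they are high. With no filter all 3 were still called, where 23.5% of 23921 genes were.

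PAL lies on chromosome 4 from 10042978 to 10050353, a span of 7376 bp in the deposited coordinates, whose build is not stated. It was at 3.05 FPKM in bud A and 3.62 in bud B, and at 1.42 in flower A and 1.68 in flower B. Both post-fertilization libraries lay below both pre-fertilization libraries, and the libraries of a group were close to each other. The group means were 3.34 ± 0.408 and 1.55 ± 0.182 FPKM (SD, n = 2). On the log2(FPKM + 1) scale, which understates changes of low genes, the difference was -0.77 (SE 0.17, 95% interval -1.23 to -0.30, limma adjusted p = 0.0314). The call was lost without bud A (limma adjusted p = 0.144), without bud B (limma adjusted p = 0.205) and without flower A (limma adjusted p = 0.0560). Without flower B it held (limma adjusted p = 0.0392), but not when the genes tested with all libraries were kept (limma adjusted p = 0.0591). The fold stayed between 1.97 and 2.35 whichever library was left out. An unnamed gene of 857 bp lies wholly within the PAL span. It was at 0.435 and 1.38 FPKM before and at 0.216 and 0.196 after fertilization, and the files do not say how fragments on the shared stretch were assigned. PAL is a multigene family in plants, and reads that fit several copies may have been split between them.

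CHS lies on chromosome 8 from 937634 to 939338, a span of 1705 bp. It stood at 0.350 FPKM in bud A and 0.716 in bud B, against 3.34 in flower A and 5.86 in flower B. Both post-fertilization libraries were above both pre-fertilization libraries, and flower B was the higher of them. Means were 0.533 ± 0.259 FPKM before and 4.60 ± 1.79 after (SD, n = 2), with a log2 difference of 1.84 (SE 0.30, 95% interval 1.06 to 2.62, limma adjusted p = 0.0139). The fold of 8.63 ranged from 6.26 without flower B to 13.2 without bud B. The call was lost without bud A (limma adjusted p = 0.10) and without bud B (limma adjusted p = 0.0817), in fits whose spread comes from the flower pair only. Without flower A or flower B the gene no longer met the filter. With the tested genes kept as they were, its log2 fold change was 2.17 without flower A and 1.51 without flower B. CHS was among the kept genes only with the help of the library left out, so these fits are no separate support. As a gauge of how coarse low values are, the lowest 1% of values above 0 on genes within 10% of its span ended at 0.0397 FPKM in bud A and 0.0701 in bud B. CHS was 8.80 and 10.2 times these values, so its level before fertilization may rest on few fragments, whose number is not known. CHS genes form families in legumes, and reads common to several copies may have been divided among them.

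CYP93C3 lies on chromosome 6 from 17441713 to 17443770, a span of 2058 bp. Before fertilization the libraries nearly coincided, at 2.57 FPKM in bud A and 2.62 in bud B. After fertilization flower A was at 0.476 and flower B at 0.123 FPKM, both far below either earlier library. Means were 2.60 ± 0.0377 and 0.30 ± 0.249 FPKM (SD, n = 2), and the log2 difference was -1.48 (SE 0.22, 95% interval -2.06 to -0.91, limma adjusted p = 0.0115). The fold of 8.67 was 21.0 without flower A and 5.46 without flower B. Flower B held only 3.82 times the value that closes the lowest 1% on genes of like span, and flower A 13.7 times. The size of the fold may thus rest on a few fragments, whose number is not known. Without bud A or bud B the gene no longer met the filter. With the tested genes kept, it missed the threshold there (limma adjusted p = 0.0885 and 0.0898). In bulk ovules, fewer cells that express a gene and less RNA per cell cannot be told apart, for CYP93C3 or for the others.

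**Figure D1:**
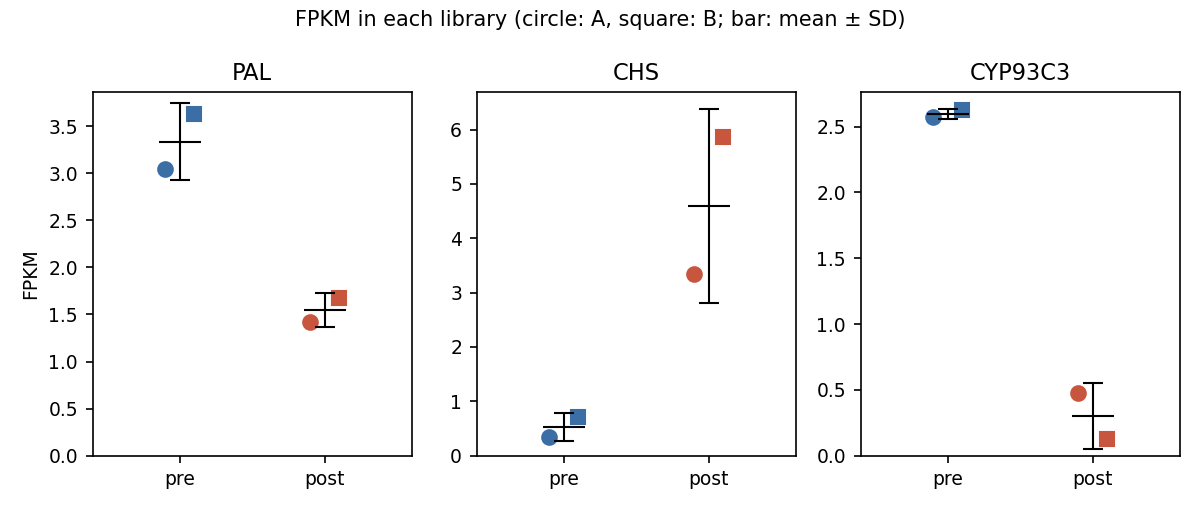
FPKM (vertical axis, linear from 0) of PAL, CHS and CYP93C3 in the pre- and post-fertilization libraries, with points for libraries A (circles) and B (squares) and bars for the mean ± SD of 2 libraries. CHS rises from 0.533 to 4.60 FPKM, while PAL falls from 3.34 to 1.55 and CYP93C3 from 2.60 to 0.30.

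The order of the genes changed between the groups, with CHS moving from lowest to highest and PAL staying above CYP93C3. Before fertilization both libraries had PAL highest, CYP93C3 next and CHS lowest. After fertilization both had CHS highest, PAL next and CYP93C3 lowest. PAL and CYP93C3 were near neighbours in the pre-fertilization order, where PAL was 1.19 times CYP93C3 in bud A and 1.38 times in bud B. No 2 of the genes overlapped in level within a group. FPKM is per length of transcript, which lets levels be set side by side across genes if fragments were assigned to the right gene. For PAL and CHS, whose reads may have been split between gene copies, that assignment is not known.

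A ratio of 2 genes within a library does not depend on how libraries were scaled to each other. The ratio of CHS to PAL was 0.115 in bud A and 0.198 in bud B, and 2.35 in flower A and 3.50 in flower B. In FPKM, PAL was thus the higher in both earlier libraries and CHS in both later ones. The ratio of CHS to CYP93C3 went from 0.136 and 0.273 to 7.01 in flower A and 47.5 in flower B. The wide gap between the post-fertilization libraries follows the low CYP93C3 value of flower B. The ratio of PAL to CYP93C3 was 1.19 and 1.38 before and 2.98 and 13.6 after, so that CYP93C3 fell further than PAL. As log2 ratios, the shifts from pre to post were 4.25 for CHS to PAL, 6.57 for CHS to CYP93C3 and 2.31 for PAL to CYP93C3. With a pseudocount of 1 they were 2.61, 3.32 and 0.72. The shift of PAL to CYP93C3 was 1.22 without flower B and 3.41 without flower A, both with no pseudocount. Groups did not overlap in any of the 3 ratios. For both ratios with CHS this follows from the single genes, which moved in opposite directions without overlap, so it adds no evidence. How many of all gene pairs lack overlap was not computed. An exact two-sided permutation test of 2 against 2 libraries gave p = 0.333 for each. This is the smallest p the design allows and the only one possible without overlap, so it decides nothing.

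**Figure D2:**
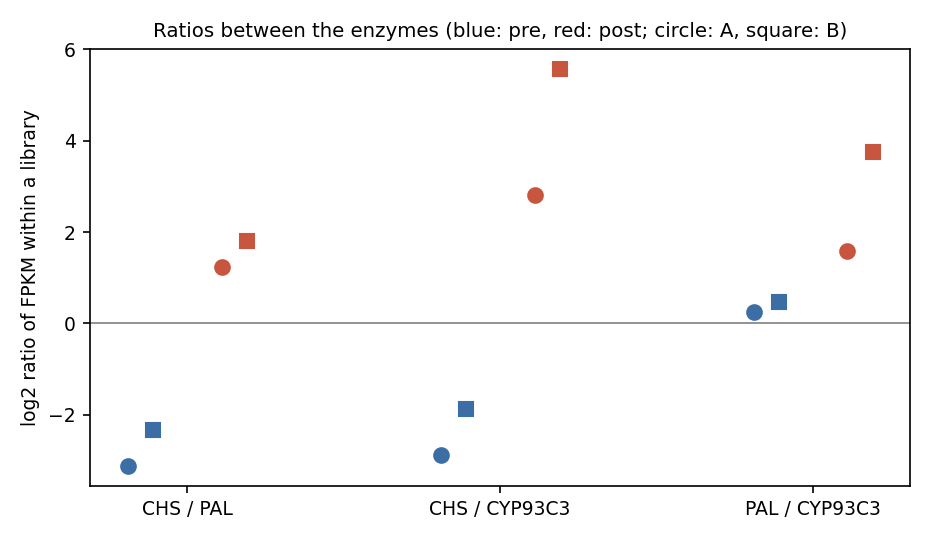
Log2 of the FPKM ratio between 2 genes within each library (vertical axis) for the 3 pairs of genes, with pre-fertilization libraries in blue and post-fertilization libraries in red. Both ratios with CHS cross 0, from -3.12 and -2.34 to 1.23 and 1.81 against PAL.

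All 3 genes were of low abundance. Among 22940 protein-coding genes of the table, PAL exceeded 40.5% and 42.4% in the pre-fertilization libraries and 32.5% and 32.4% in the post-fertilization libraries. CHS moved up from 25.9% and 29.7% to 40.1% and 46.3%. CYP93C3 moved down from 38.9% in both earlier libraries to 25.4% in flower A and 17.7% in flower B. Even CHS in flower B, at 5.86 FPKM, stayed below 9.89 FPKM, the median of the protein-coding genes above 0 in that library. In the plot of change against level, the 3 genes lie at its low end.

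**Figure D3:**
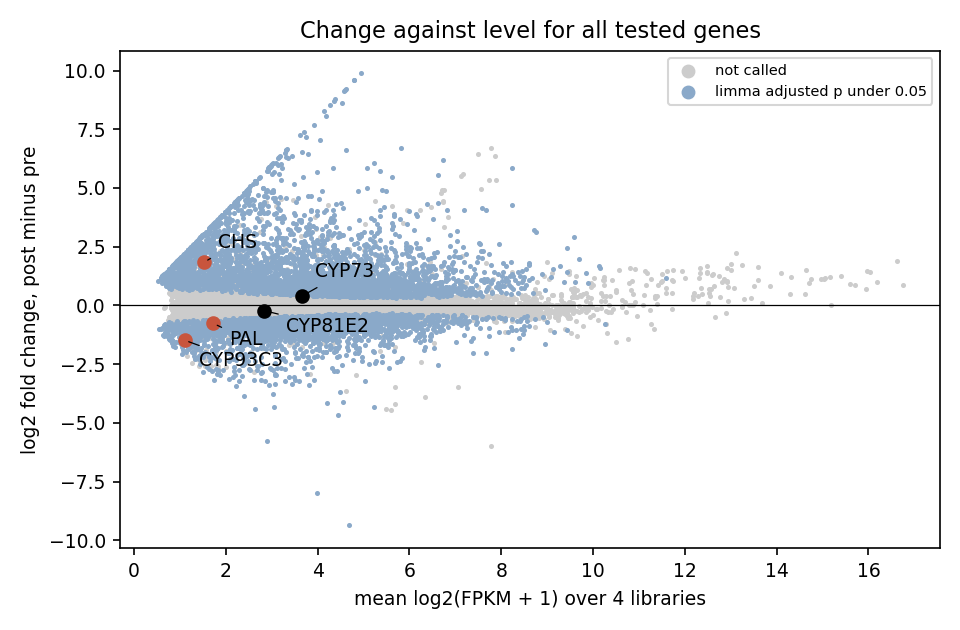
Log2 fold change (post minus pre, vertical axis) against mean log2(FPKM + 1) over 4 libraries (horizontal axis) for the 17849 tested genes, with called genes in blue and PAL, CHS and CYP93C3 in red. CHS (1.84) lies above 0 and PAL (-0.77) and CYP93C3 (-1.48) below, while CYP73 and CYP81E2, in black, lie near 0.

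Other genes of the pathway could be recognised only by symbol, since most identifiers carry none. The list held 10 genes, of which 5 passed the filter on low values. Of these 5, 1 was higher after fertilization (CHS), 2 were lower (PAL and CYP93C3) and 2 were not past the threshold, where 36.5% of all tested genes were called, 21.0% higher and 15.5% lower. Since CHS and CYP93C3 passed the filter only through their higher group, these counts do not describe the list as a whole. Without a filter the same counts were 1 higher, 2 lower and 6 not past the threshold among 9 genes, beside 23.5% called among all genes fitted that way. The median log2 fold change of the 5 was -0.21 beside 0.02 over all tested genes, and -0.03 over the 9 genes without a filter. Its sign was not stable: it was 0.090 with CAIFR added, 0.27 without bud A, where CYP93C3 no longer met the filter, and 0.28 without flower B when the tested genes were kept.

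CYP73, cinnamate 4-hydroxylase, acts directly after PAL. It was at 11.3 FPKM in bud A, 8.75 in bud B, 12.7 in flower A and 14.2 in flower B. Its post-fertilization libraries were both slightly above the others, and the log2 difference of 0.39 (SE 0.17, 95% interval -0.04 to 0.83) did not pass (limma adjusted p = 0.126). As the values are scaled here, the genes with the symbols PAL and CYP73 had estimates of opposite sign. The difference between their changes was not tested, and no fit with libraries scaled to equal FPKM sums was run. Other copies of these enzymes among genes without a symbol were not identified, so the values do not describe the 2 pathway steps as a whole. CYP73 stayed more abundant than the gene named PAL in every library.

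Downstream of isoflavone synthase, CYP81E2 was the most abundant CYP81E gene in 3 of the 4 libraries. It was at 7.63 FPKM in bud A, 5.71 in bud B, 8.25 in flower A and 3.65 in flower B. The groups overlapped, and the log2 difference of -0.21 had an interval from -1.20 to 0.77 (limma adjusted p = 0.674). It was 0.28 without flower B. IFR, which reduces isoflavones on the way to pterocarpans, ranged only from 0.484 to 0.716 FPKM over the 4 libraries and was below the filter. CAIFR was added to the list after its symbol had been seen, which reads as IFR with a species prefix. It was at 2.03 and 2.19 FPKM before and at 2.72 and 5.77 after fertilization, and did not pass (log2 difference 0.69, SE 0.32, limma adjusted p = 0.159). Its log2 difference was 1.12 without flower A and 0.26 without flower B, so its size rested largely on flower B.

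CYP81E4 stood at 37.1 FPKM in flower B and at 0.841 in bud A, 0.209 in bud B and 0.644 in flower A. A single library was high, and its group partner lay within the range of the pre-fertilization libraries. With 1 FPKM reached in 1 library the gene was not tested, and without a filter it did not pass (limma adjusted p = 0.334). Flower B held 69 genes of at least 10 FPKM that were at least 10 times their highest value in the other libraries. Of these, 33 were protein-coding. Flower A held 14 such genes, 0 of them protein-coding. Whether what sets flower B apart bears on CYP81E4 was not tested. CYP81E5, a neighbour of CYP81E4 on chromosome 1, was also highest in flower B, at 0.661 FPKM against 0.192 in flower A, 0.0386 in bud A and 0 in bud B. CYP81E3 was listed at 0 in all libraries, and the gene with the synonym cyp81E3v2 was at 0.0769 FPKM or below. The isoflavone hydroxylase genes with a symbol thus gave no shared direction.

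**Figure D4:**
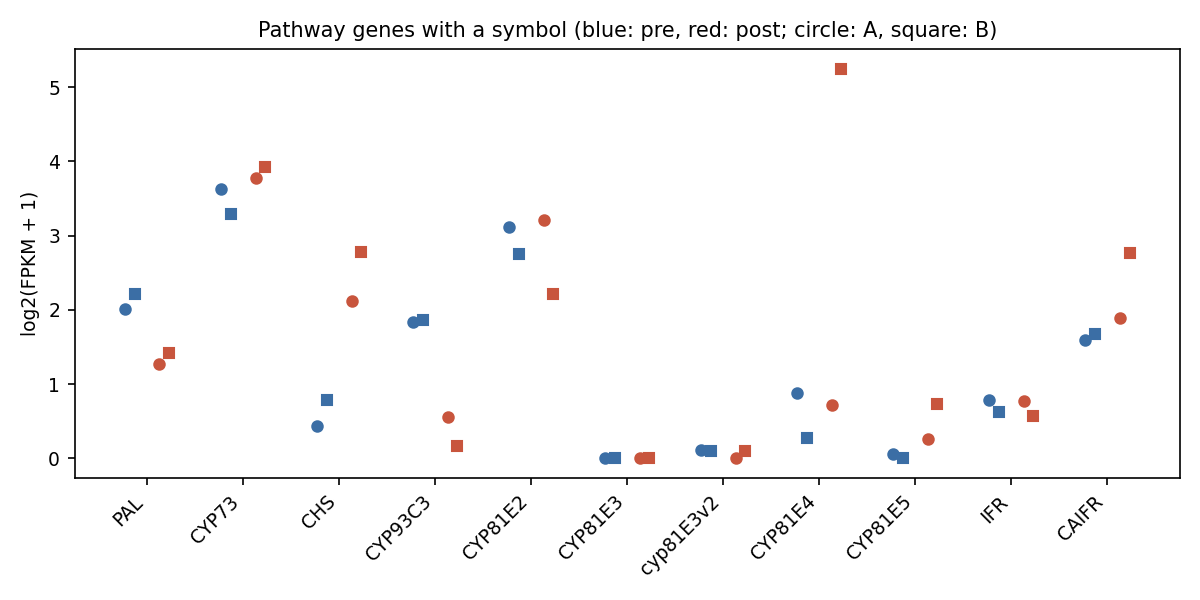
Log2(FPKM + 1) of the pathway genes with a symbol (vertical axis) in each library, with pre-fertilization libraries in blue, post-fertilization libraries in red, circles for A and squares for B. CYP81E4 is high in flower B only (37.1 FPKM), while CYP73 stays between 8.75 and 14.2 FPKM in all libraries.

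The genes on either side of each member were looked up in the deposited table after its values had been seen, 5 on each side. Of 8 tested neighbours of PAL, 1 was lower and 0 were higher, where 15.5% of all tested genes were lower and 21.0% higher. The unnamed gene within the PAL span, also lower after fertilization, was too low to be tested. Next to CHS, 1 of 8 tested neighbours was higher and 1 lower. The higher one ends 1585 bp before CHS and went from 28.0 and 28.1 to 48.1 and 47.9 FPKM (limma adjusted p = 0.00765). The next gene on the other side, 17742 bp away and without a symbol, was at 0.162 and 0.0983 FPKM before and 0.965 and 1.85 after, and was too low to be tested. Around CYP93C3, 2 of 4 tested neighbours were lower and 0 higher. The nearest gene before it, 12612 bp away, fell from 21.97 and 20.6 to 4.33 and 2.41 FPKM (limma adjusted p = 0.00561). The nearest genes after it, 2635 and 8961 bp away, were below the filter. The first was at 0.713 and 1.24 FPKM before and 0.505 and 0.214 after, and the second at 0.784 and 1.14 before and 0.363 and 0 after. These genes have no symbol in either table, so whether they are copies of the members is not known here. Shares called among the tested neighbours stand beside the 36.5% of all tested genes and are too few to set against it.

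**Figure D5:**
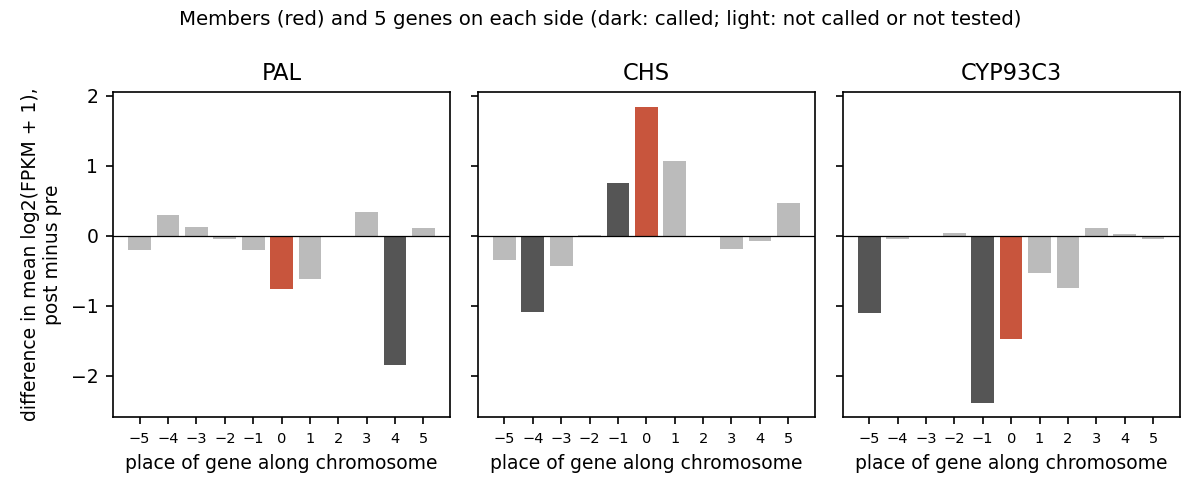
Difference between group means of log2(FPKM + 1), post minus pre (vertical axis), for each member (red, place 0) and 5 genes on each side in order along the chromosome (horizontal axis), with called neighbours dark and the rest light. The gene before CYP93C3 (-2.38) and the gene before CHS (0.76) share the sign of their neighbour.

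Genes with the most similar pattern were found by Euclidean distance of log2(FPKM + 1) over the 4 libraries after each gene's mean was subtracted. With 4 libraries the measure reflects mostly the difference between the groups. The added 1 shrinks changes of the low members more than those of abundant genes, so a near gene can differ in fold. Mean FPKM of CYP93C3 fell from 2.60 to 0.30, and that of ARF15, near to it, from 17.7 to 6.57. For CHS it rose from 0.533 to 4.60, and for BZIP, near to CHS, from 8.59 to 31.7. Among genes with a symbol, PAL was nearest to ARF6, an auxin response factor (distance 0.167, against a median of 0.891 over all tested genes), LUX, a clock gene (0.191), and MAPK11, a mitogen-activated kinase (0.192). ARF6 fell from 20.3 and 21.3 FPKM to 12.0 and 11.5. CHS was nearest to BZIP, named as a bZIP transcription factor (0.221, against a median of 1.94), ACTIN (0.267) and MT-1, named as a metallothionein (0.310). BZIP rose from 8.04 and 9.14 FPKM to 26.7 and 36.6. CYP93C3 was nearest to ARF15 (0.176, against a median of 1.57), XTH1, a xyloglucan enzyme of the cell wall (0.266), and HSFB4B, a heat stress transcription factor (0.357). ARF15 fell from 17.4 and 18.1 FPKM to 7.41 and 5.73. These are the nearest genes with a symbol, not the nearest of all: among the 17848 other tested genes, ARF6, LUX and MAPK11 ranked 125, 207 and 212 for PAL. BZIP, ACTIN and MT-1 ranked 24, 48 and 76 for CHS, and ARF15, XTH1 and HSFB4B ranked 53, 141 and 266 for CYP93C3. The nearest of all had no symbol: LOC101512043 to PAL (0.0424), LOC101512925 to CHS (0.0783) and LOC101504948 to CYP93C3 (0.0261). LOC101512925 was, like CHS, low before fertilization, at 0 and 0.308 FPKM, and higher after, at 2.47 and 4.28.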

How the data were processed

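The authors deposited 1 table of FPKM values. Tools listed in the submitters' processing notes are HISAT2, Cufflinks, Cuffdiff, fastp and FastQC, with no version or step. Genome build, annotation and scaling of libraries to each other: not given in the sources used here. A column name shows a library's group, not its sample within that group. Symbols came from the table and a RefSeq gene table of another assembly (25491 genes matched on gene number), whose coordinates were not used. Chromosome numbers are those most genes of a sequence carry there.

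A gene was tested if 2 or more libraries reached 1 FPKM. The fit used limma 3.58.1 (R 4.3.3) on log2(FPKM + 1) with group as the only term and a variance trend (2 residual and 2.55 prior degrees of freedom). P-values are two-sided, with Benjamini-Hochberg adjustment over all tested genes. The procedure was tested on simulated data with changes placed only in genes more abundant than the members, so that test does not cover their level. Folds are ratios of mean FPKM. Alternatives were other pseudocounts, filters and scalings, no variance trend and leaving out each library. Chosen after seeing the data were protein-coding genes only and a block on the column ending. Also not planned were the addition of CAIFR, leave-one-out fits with the tested genes kept, and leave-one-out ratios with no pseudocount. Members and lists were chosen with earlier results of these data known. Named were the 3 members, every tested pathway gene and, for each member, the 3 nearest genes with a symbol and the nearest without, and the untested pathway genes and the neighbours by position were added after their values were seen. Figures were drawn with matplotlib 3.10.9.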

Additional observations from a re-analysis of the deposited data

How the results depend on the processing

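PAL, CHS and CYP93C3 kept their call under all 7 alternatives that used all libraries, had no block and tested them. Log2 fold changes ran from -1.06 to -0.35 for PAL, 0.78 to 2.90 for CHS and -2.91 to -0.52 for CYP93C3. The highest limma adjusted p was 0.0496, for PAL with no filter. Only quantile normalization could have reversed a direction, and did not. A filter of 5 FPKM removed all 3 genes. Of 2 pathway genes left, 0 were called (median log2 fold change 0.090). Quantile normalization moved the median over all tested genes from 0.02 to -0.14 on the log2 scale, and that of the list to -0.37. The list median was -0.031 with no filter and 0.090 with CAIFR added.

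Leaving out libraries 1 at a time, the log2 fold change ranged from -0.86 to -0.67 for PAL, from 1.51 to 2.17 for CHS and from -1.68 to -1.29 for CYP93C3. For these genes groups did not overlap, so direction could not change. Between 0 and 2 pathway genes were then called, the list median ranged from -0.70 to 0.28, and between 475 and 7404 genes of the whole table were called. Without bud A or bud B the spread comes from the flower pair only, the lone bud sample is assumed to vary likewise, and 776 and 653 genes were called. CYP81E2, at -0.21 with all libraries, ranged from -0.71 without flower A to 0.28 without flower B. For the other named genes, 194 alternative values kept direction and call, 50 lost the call, 2 gained it and 2 reversed.

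The shifts in within-library log2 ratios were 2.61 (CHS to PAL), 3.32 (CHS to CYP93C3) and 0.72 (PAL to CYP93C3) with a pseudocount of 1. They were 3.96, 5.81 and 1.85 with a pseudocount of 0.1 and 4.25, 6.57 and 2.31 with none, since a pseudocount shrinks the change of low genes. Leaving out libraries, with a pseudocount of 1 or none, they ranged from 2.35 to 4.64, from 2.80 to 7.95 and from 0.45 to 3.41.

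The column names do not carry the replicate numbers of the labels, so nothing pairs libraries across the groups. Deviations from the group means of libraries with the same ending had a correlation of 0.021 over genes. A replicate block on that ending, chosen after seeing the data, left 1 residual degree of freedom and called 5626 genes. With it CHS (limma adjusted p = 0.0141) and CYP93C3 (limma adjusted p = 0.0239) kept their calls, and PAL, at -0.77, missed the threshold (limma adjusted p = 0.0509). With 2 libraries per group and unknown depth, low values such as those of CYP93C3 after fertilization are imprecise.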
